A study of Pinus pinaster with 36 samples.

Results

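In maritime pine (Pinus pinaster) seedlings, 147 of 224081 transcript identifiers were selected on their measured levels as root transcripts more abundant with nitrate than with ammonium. Their nitrate to ammonium ratio was under 1.5 in needles, in stem or in both. They were chosen by CPM, which is a transcript's count scaled to a common library total, averaged over the 3 libraries of a group. A member had at least 5 CPM on average in nitrate-fed roots. Its nitrate to ammonium ratio in roots was at least 2.5 at 400 and at 720 ppm CO2, and at each CO2 level its lowest nitrate library lay above its highest ammonium library. It reached a mean of at least 0.5 CPM in needles or in stem, stayed under 500 CPM in each organ's mean, and had a nitrate to ammonium ratio under 1.5 in needles or in stem. The rule kept up to 200 transcripts, and the limit was not reached. Of the identifiers, 33528 met the level in nitrate roots, 567 of these also met both ratios, and 530 of those had no overlap of libraries. The shoot level left 236 and the shoot ratio left 147, of which the limit of 500 CPM removed none.

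The seedlings were 2 months old, of the provenance Segura-Alcaraz, and grew on vermiculite in growth chambers. For 1 month they received 40 mL a week of 8 mM potassium nitrate in air with 720 ppm CO2, 8 mM ammonium chloride at 720 ppm, 8 mM potassium nitrate at 400 ppm, or 8 mM ammonium chloride at 400 ppm. Nitrogen form therefore came with potassium or with chloride as the counter-ion, and the contributions of the ions cannot be told apart. Each of the 3 biological replicates of a group was a pool of 12 seedlings, from which needles, stem and roots gave 1 library each, 36 libraries in all. The seedlings of a pool were seed-grown and not clones of one genotype, and no group without nitrogen or without treatment is part of this comparison.

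Plants take up nitrate through plasma membrane transporters of the root. Nitrate is reduced to nitrite by nitrate reductase and to ammonium by nitrite reductase, and the ammonium enters amino acids through glutamine synthetase and glutamate synthase. Ammonium taken up as such enters at the last of these steps, and nitrate also acts as a signal that raises transcription of genes for its own uptake and reduction in many plants. Conifers are known for taking up ammonium readily and for reducing much of the nitrate they absorb in the root. No source used here pairs the identifiers with gene names, so no function is attached to a transcript, and the markers of root, needle and stem tissue could not be looked up. No sequence is printed for the same reason.

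The library totals ran from 76221102 to 120587917 counts in roots and from 73414247 to 134836160 over all 36 libraries. The share of identifiers with a count of 0 was 11.1 to 29.8% in roots, 28.6 to 58.5% in needles and 22.9 to 57.9% in stem. In 7 libraries, 4 of needles and 3 of stem and none of roots, over 65% of the counts above 20 were even numbers, and these are called low-complexity libraries here. All 147 transcripts had counts above 0 in every root library, and the lowest count in a nitrate root library was 192. In needle libraries 4 to 27 of them had a count of 0, and in stem libraries 0 to 19. Transcript lengths were not used, so CPM values are compared between samples, and an order of transcripts by CPM is an order of counts.

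In roots the 147 transcripts together took 0.655 to 0.682% of all counts in the 3 nitrate libraries at 720 ppm, against 0.199 to 0.201% in the 3 ammonium libraries at 720 ppm. At 400 ppm the shares were 0.540 to 0.683% with nitrate and 0.155 to 0.181% with ammonium. The members were selected on this difference, so it is a description. In bulk tissue, more cells of a type and more RNA of a transcript per cell cannot be told apart. The shoot shares lay below all nitrate root shares: stem libraries had 0.153 to 0.170% with nitrate and 0.0998 to 0.128% with ammonium, and needle libraries had 0.111 to 0.134% with nitrate and 0.114 to 0.134% with ammonium. The nitrate and ammonium shares did not overlap in stem and overlapped in needles. A single transcript, PpCO2_167522, carried part of the sums. Without it the root shares were 0.599 to 0.615% with nitrate and 0.177 to 0.183% with ammonium at 720 ppm, and 0.497 to 0.625% with nitrate and 0.145 to 0.162% with ammonium at 400 ppm.

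**Figure D1:**
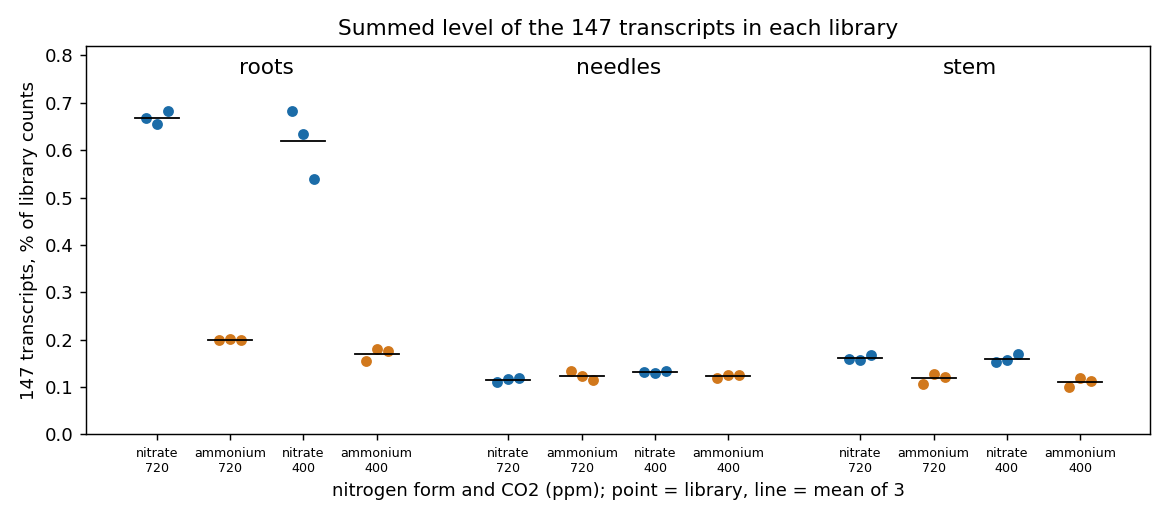
Sum of the 147 transcripts as a percentage of all counts in a library (y axis), for the 12 groups of organ, nitrogen form and CO2 level (x axis). Each point is 1 library and each line the mean of 3; nitrate root libraries lie at 0.540 to 0.683%, and all other libraries at 0.201% or less.

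Most of the root differences were moderate. The nitrate to ammonium ratio at 720 ppm ran from 2.51 to 15.2 with a median of 3.24, and at 400 ppm from 2.51 to 78.6 with a median of 3.36. The smaller of a transcript's ratios was at least 5 for 22 transcripts, between 3 and 5 for 48, and under 3 for 77. The ratios at the CO2 levels lay within 1.5-fold of each other for 129 of the 147, and the ratio at 400 ppm was the larger for 95. Mean levels in nitrate roots ran from 5.08 to 584 CPM with a median of 17.9, and in ammonium roots from 0.927 to 193 CPM with a median of 4.46. At least 100 CPM was reached in nitrate roots by 15 transcripts, and 41 stayed under 10 CPM. The coefficient of variation over 3 replicate libraries had a median of 13.6% with nitrate and 17.3% with ammonium.

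**Figure D2:**
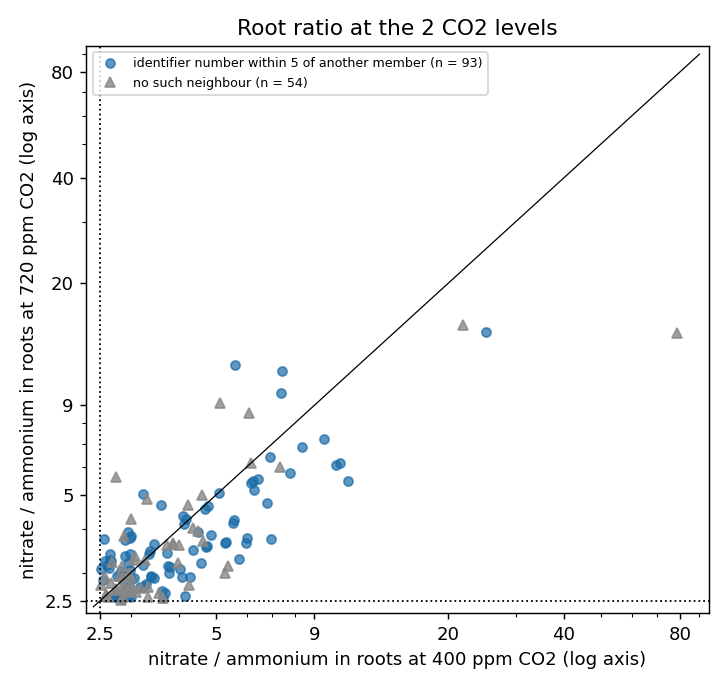
Nitrate to ammonium ratio of mean CPM in roots at 400 ppm (x axis) and at 720 ppm CO2 (y axis), both on log axes, for the 147 transcripts. Dotted lines mark the limit of 2.5 that chose them, the solid line marks equal ratios, and blue circles (93) have another member within 5 identifier numbers while grey triangles (54) have none; 95 points lie on the side of a larger ratio at 400 ppm.

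The largest smaller ratio belonged to PpCO2_24125. It had 29.1, 30.4 and 36.0 CPM in nitrate roots at 720 ppm, against 2.60, 1.58 and 2.11 CPM in ammonium roots, a ratio of 15.2. At 400 ppm it had 30.9, 36.0 and 26.5 CPM with nitrate and 1.05, 1.65 and 1.57 CPM with ammonium, a ratio of 21.9. Every nitrate library was thus more than 10 times above every ammonium library at each CO2 level. PpCO2_134931 came next, with 53.7, 56.7 and 47.0 CPM in nitrate roots against 3.51, 3.94 and 3.33 CPM in ammonium roots at 720 ppm. At 400 ppm it had 71.5, 66.6 and 62.0 CPM with nitrate and 2.64, 2.61 and 2.71 CPM with ammonium. Its replicates were close, and its nitrate libraries were lower and its ammonium libraries higher at 720 than at 400 ppm, with ratios of 14.6 and 25.2. PpCO2_166228 had the largest single ratio, 78.6 at 400 ppm, and the widest spread of these. It had 187, 157 and 166 CPM with nitrate and 8.65, 19.8 and 6.86 CPM with ammonium at 720 ppm. At 400 ppm it had 310.1, 74.7 and 154 CPM with nitrate and 4.91, 1.28 and 0.671 CPM with ammonium. In stem its 12 libraries ran from 0 to 6.28 CPM with a mean of 1.15 CPM and a ratio of 3.39, so it met the shoot level there. It met the ratio under 1.5 through needles, where it had 2 counts in 1 ammonium library and none in the other 11.

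The other 2 of the 5 largest were PpCO2_221615 and PpCO2_84420. PpCO2_221615 averaged 15.7 CPM in nitrate roots and 1.72 CPM in ammonium roots, with ratios of 11.3 at 720 ppm and 7.42 at 400 ppm. PpCO2_84420 had 108, 92.8 and 137 CPM with nitrate and 12.4, 9.82 and 12.5 CPM with ammonium at 720 ppm. At 400 ppm the values were 117, 109 and 95.2 CPM with nitrate and 17.8, 14.9 and 10.9 CPM with ammonium. Among these 5 it was the only one with over 10 CPM of mean in ammonium roots.

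The transcripts with the most counts in nitrate roots had smaller ratios. PpCO2_167522 had 532, 561 and 763 CPM with nitrate and 159.7, 219.95 and 228 CPM with ammonium at 720 ppm. Values at 400 ppm were 585, 637 and 427 CPM with nitrate and 99.6, 187 and 264 CPM with ammonium. It was also the member with the most counts in needles and in stem, at 121 and 322 CPM on average. PpCO2_84417 had 321, 291 and 360.2 CPM with nitrate and 76.6, 71.4 and 76.2 CPM with ammonium at 720 ppm. At 400 ppm the values were 352, 332 and 289 CPM with nitrate and 78.4, 84.0 and 75.4 CPM with ammonium. Its ammonium libraries all lay between 71.4 and 84.0 CPM, and those at 720 and 400 ppm overlapped. PpCO2_84415, PpCO2_63389 and PpCO2_63392 followed with 266, 239 and 238 CPM in nitrate roots and 77.9, 86.6 and 86.9 CPM in ammonium roots.

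At the limit, PpCO2_13170 and PpCO2_30451 were the last inside, each with a smaller ratio of 2.51, and PpCO2_63385 and PpCO2_140253 the first outside, each with 2.48. PpCO2_63385 averaged 199.8 CPM in nitrate roots and 75.9 CPM in ammonium roots, close to members with neighbouring identifier numbers. The limit therefore separates transcripts with like values. On edgeR's quasi-likelihood test with Benjamini-Hochberg adjustment over 156123 root transcripts, 145 members were called higher with nitrate at 720 ppm, where 4.09% of all tested transcripts were, and 146 at 400 ppm, where 5.47% were. Those contrasts chose the members, so the counts describe them and support nothing. PpCO2_70818 was called at neither CO2 level and PpCO2_22229 not at 720 ppm, and both are named after their values were seen. PpCO2_22229 had 5.08, 7.95 and 9.66 CPM with nitrate and 0.498, 2.37 and 4.05 CPM with ammonium at 720 ppm, groups that do not overlap but spread widely.

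Many members had neighbouring identifier numbers. No such share was taken over other transcripts, so it is not read as a trait of the members. With a gap of at most 5 between successive members, 93 of the 147 (63.3%) fell into 30 runs of 2 to 7 members, and 54 stood alone, which makes 84 runs in all. What a neighbouring number stands for (variants of a gene, copies, or fragments of a transcript) is not given in the sources used here, and near-identical transcripts could share counts, so members of a run were not taken as independent. The longest run held 7 of the 8 identifiers from 100669 to 100676, with smaller ratios of 2.56 to 2.94 and nitrate root means of 26.5 to 86.8 CPM. PpCO2_100676, PpCO2_100674 and PpCO2_100669 led it with 86.8, 74.7 and 60.1 CPM in nitrate roots and 27.5, 23.6 and 20.1 CPM in ammonium roots. Its 7 members also had like shoot ratios, 1.26 to 1.34 in needles and 1.48 to 1.60 in stem.

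A second run held all 6 identifiers from 63387 to 63392, with smaller ratios of 2.52 to 2.63. PpCO2_63387 had the lowest nitrate root mean of them, 74.7 CPM, and PpCO2_63389 the highest, 239 CPM. PpCO2_63390 and PpCO2_63391 differed little from each other, with 204 and 202 CPM in nitrate roots and 75.2 and 74.0 CPM in ammonium roots. In this run neither shoot organ followed the nitrogen form by 1.5-fold, with ratios of 1.11 to 1.18 in needles and 0.946 to 1.1 in stem. The third run held all 6 identifiers from 144871 to 144876, with smaller ratios of 5.48 to 7.22. PpCO2_144876 had 60.4, 50.5 and 46.8 CPM with nitrate and 7.58, 5.87 and 8.37 CPM with ammonium at 720 ppm, and 57.4, 42.1 and 34.8 CPM with nitrate and 3.32, 6.49 and 4.30 CPM with ammonium at 400 ppm. PpCO2_144874 and PpCO2_144871 averaged 44.0 and 34.9 CPM in nitrate roots and 5.90 and 5.27 CPM in ammonium roots. All 6 belong to the 22 transcripts with a smaller ratio of at least 5. Of the 147 members, 45 had within 5 numbers a transcript that met the root criteria and failed a shoot criterion, so related numbers also fell on both sides of the shoot limits.

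The 5 runs of 4 or 5 members fell on different sides of the shoot limits. The 4 members from 97012 to 97015 averaged 13.1 to 34.6 CPM in nitrate roots and 3.20 to 7.27 CPM in ammonium roots, with ratios of 0.927 to 1.00 in needles and 0.919 to 1.33 in stem, so neither shoot organ followed the nitrogen form by 1.5-fold. The 4 from 1470 to 1475 averaged 6.28 to 24.9 CPM in nitrate roots and 1.66 to 6.52 CPM in ammonium roots, and their ratios were 1.24 to 1.49 in needles and 1.68 to 2.19 in stem. These were members because their needle ratios lay under the limit. The 4 from 55371 to 55381 averaged 14.9 to 26.9 CPM in nitrate roots and 4.39 to 6.59 CPM in ammonium roots, but only 0.00632 to 0.0203 CPM in needles, so the needles carried almost none of them. The 4 from 106876 to 106881 averaged 0.0927 to 0.138 CPM in needles and had stem ratios of 1.82 to 2.63. The 5 from 124022 to 124028 had stem ratios of 1.45 to 2.85 and needle ratios of 0.684 to 1.19.

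A response in roots alone did not hold for all members. The rule asks for a ratio under 1.5 in needles or in stem, not in both. The ratio was under 1.5 in both organs for 76 members (51.7%), at least 1.5 in stem for 65 (44.2%) and at least 1.5 in needles for 6. For 27 members the ratio under 1.5 came only from an organ in which they averaged under 0.5 CPM, so few counts stood behind it. Under 1.5 in every shoot organ where they reached 0.5 CPM were 83 members. The members are therefore described as transcripts higher in nitrate roots with a ratio under 1.5 in at least 1 shoot organ. Among the 133 members of at least 0.5 CPM in stem, the median stem ratio was 1.44, against 1.01 over all such transcripts. Among the 105 members of at least 0.5 CPM in needles, the median needle ratio was 1.11, against 1.02 over all such transcripts. Over all members, whatever their shoot level, the medians were 1.43 in stem and 1.04 in needles. The rule used these ratios as well, and they are given without a test.

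**Figure D3:**
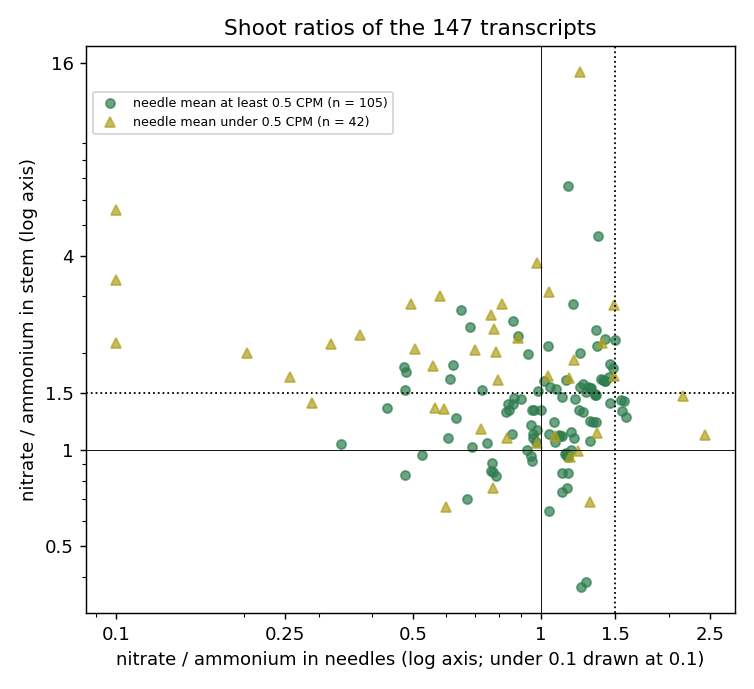
Nitrate to ammonium ratio of mean CPM over 6 libraries each in needles (x axis) and stem (y axis), log axes, for the 147 transcripts, with needle ratios under 0.1 drawn at 0.1. Dotted lines mark 1.5 and thin lines 1; green circles average at least 0.5 CPM in needles (105) and yellow triangles less (42), and 65 points lie at or above 1.5 in stem against 6 in needles.

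Without overlap of 6 against 6 libraries, the nitrate libraries lay above the ammonium libraries in stem for 19 of the 133 members that averaged at least 0.5 CPM there, beside 0.586% of all such transcripts, and below them for 1, beside 0.483%. In needles they lay above for 6 of 105 members, beside 0.510% of all such transcripts, and below for 0, beside 0.389%. Membership limits these ratios, so nothing is read from the counts. The 76 members under 1.5 in both organs had medians of 19.8 CPM in nitrate roots, 4.94 CPM in ammonium roots, 2.63 CPM in needles and 1.88 CPM in stem. The 65 with a stem ratio of at least 1.5 had medians of 16.0 CPM in nitrate roots and 4.39 CPM in ammonium roots, with 0.749 CPM in needles and 1.49 CPM in stem, and 27 of them averaged under 0.5 CPM in needles. A needle ratio under 0.667, that is, higher with ammonium, was found in 27 members, and a stem ratio under 0.667 in 4. These counts were taken over all members, of which 42 averaged under 0.5 CPM in needles. Among the 105 of at least 0.5 CPM there, the needle ratio had a lower quartile of 0.861 and a lowest value of 0.339.

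The highest stem ratio was that of PpCO2_47657. It had 2.24, 2.67 and 3.17 CPM in nitrate stems against 0.0754, 0.158 and 0.286 CPM in ammonium stems at 720 ppm, and 1.46, 1.28 and 2.80 CPM with nitrate against 0.0234, 0.341 and 0.0229 CPM with ammonium at 400 ppm. Its groups did not overlap in stem, and its levels in needles were 0.0198 to 1.03 CPM without a separation. The ratio of the next, PpCO2_151629, was 6.61 in stem and rests on 6 counts in all 12 stem libraries together. PpCO2_85218 had the lowest stem ratio, 0.372, with 1.17, 1.78 and 2.03 CPM in nitrate stems against 4.04, 4.99 and 3.05 CPM in ammonium stems at 720 ppm. At 400 ppm it had 1.22, 1.25 and 1.62 CPM with nitrate and 3.91, 5.73 and 2.65 CPM with ammonium. It was the member without overlap that was lower with nitrate in stem, while in roots it averaged 138 CPM with nitrate and 39.2 CPM with ammonium. PpCO2_135014 had a stem ratio of 0.386, with a mean of 0.362 CPM in stem.

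In needles the highest ratios, 2.44 for PpCO2_86087 and 2.16 for PpCO2_111436, belonged to transcripts of 0.212 and 0.314 CPM. The lowest were 0 in 3 members, PpCO2_75332, PpCO2_100391 and PpCO2_166228, with no count in the 6 nitrate needle libraries and 22, 2 and 2 counts over the 6 ammonium needle libraries. These 5 therefore say little about needles. PpCO2_167522 had counts enough in all organs. In needles it had 91.8, 64.1 and 71.1 CPM with nitrate and 307, 178 and 158 CPM with ammonium at 720 ppm, and 119, 73.6 and 50.8 CPM with nitrate and 127, 107 and 102 CPM with ammonium at 400 ppm. In stem it had 403, 332 and 434 CPM with nitrate and 140.3, 346 and 245 CPM with ammonium at 720 ppm, and 398, 394 and 499 CPM with nitrate and 106, 282 and 288 CPM with ammonium at 400 ppm. The same transcript was thus on average higher with nitrate in roots and stem (stem ratio 1.75) and lower with nitrate in needles (ratio 0.481).

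**Figure D4:**
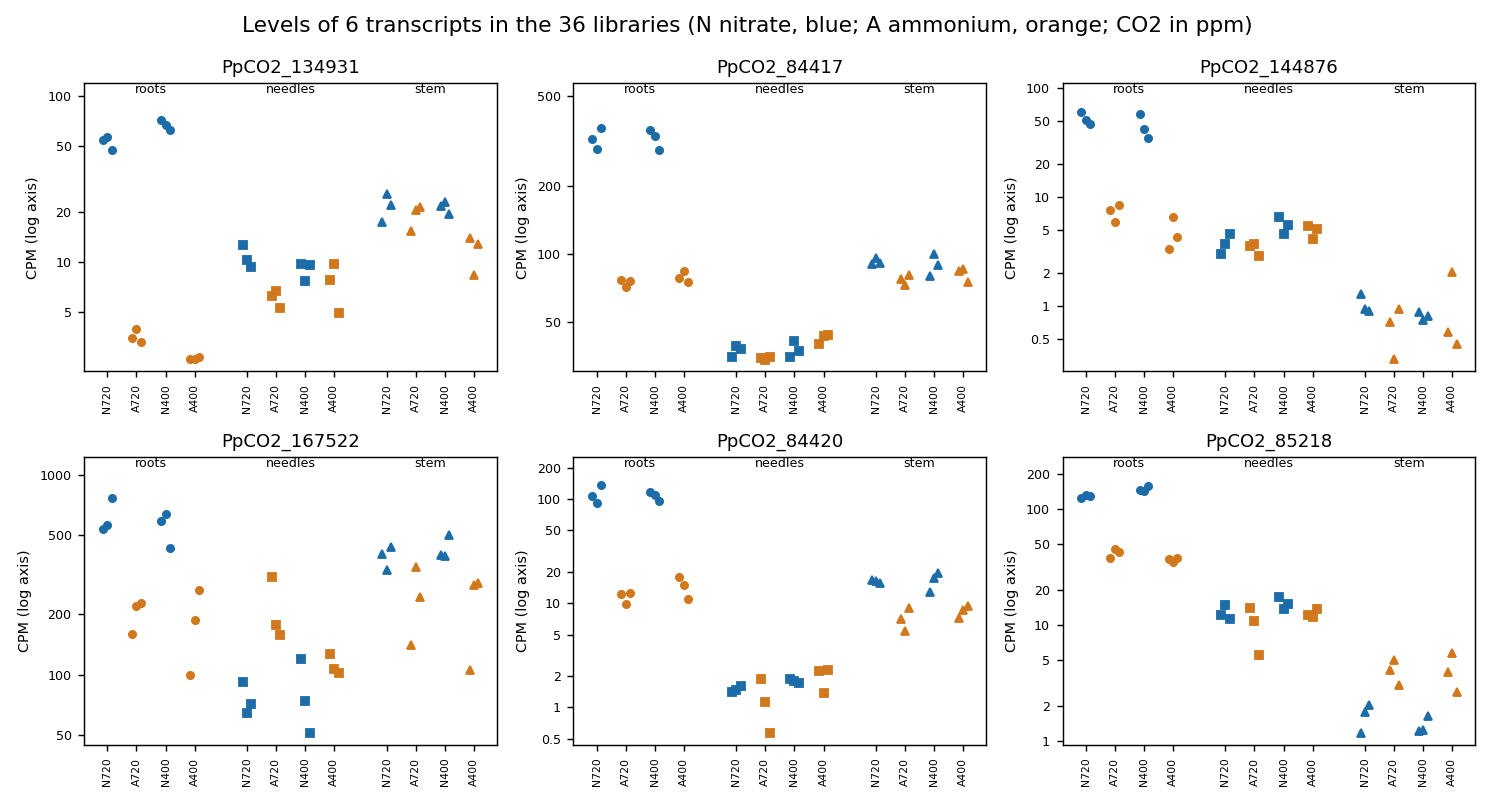
CPM on log axes (y axes) of 6 named transcripts in the 36 libraries, by organ (circles roots, squares needles, triangles stem), nitrogen form (N nitrate, blue; A ammonium, orange) and CO2 in ppm (x axes). PpCO2_84417 separates in roots and stays within 34.1 to 44.1 CPM in needles, PpCO2_84420 separates in roots and stem, and PpCO2_85218 is higher with nitrate in roots and lower with nitrate in stem.

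Roots held more of these transcripts than the shoot with either nitrogen form in most cases. The nitrate root mean was above both shoot organs' nitrate means for 142 members, and the ammonium root mean above both ammonium means for 113. The rule asked for at least 5 CPM in nitrate roots and only 0.5 CPM in a shoot organ, so these counts are a description. The 5 exceptions with nitrate were higher in needles: PpCO2_16470, PpCO2_40747, PpCO2_93893, PpCO2_1474 and PpCO2_70818, all named after their values were seen. PpCO2_16470 averaged 22.0 CPM in needles and 0.344 CPM in stem, against 10.04 CPM in nitrate roots. PpCO2_93895, the second highest in needles, averaged 112 CPM there, against 117 CPM in nitrate roots and 37.7 CPM in ammonium roots. Its needle libraries ran from 94.1 to 129 CPM and did not separate the nitrogen forms (ratio 1.08).

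Per CO2 level, edgeR's quasi-likelihood test called few members for nitrogen form in the shoot. In needles 133 members passed the filter on low counts. At 720 ppm 1 of them, PpCO2_95257, was called, where 0.076% of all tested transcripts were. It had 0.507, 0.484 and 0.549 CPM with nitrate and 1.63, 5.09 and 5.20 CPM with ammonium, a log2 fold change of -2.99 ± 0.41 (SE; adjusted p = 0.0109). With the replicate number as a block 3 members were called there, where 0.0939% of all were. At 400 ppm PpCO2_42336 was called, where 0.103% of all tested were, with 6.02, 5.12 and 7.19 CPM with nitrate and 11.9, 17.4 and 11.1 CPM with ammonium (log2 fold change -1.16 ± 0.20 SE, edgeR adjusted p = 0.0347). That call was lost with limma-voom (adjusted p = 0.0545), and the log2 fold change over the alternatives ran from -1.29 to -0.714. The fit without the low-complexity libraries left only nitrate replicate 3 at 400 ppm, so no p-value is given from it. The call of PpCO2_42336 was also lost without any 1 of 4 libraries at 400 ppm, replicate 1 or 2 of either nitrogen form (adjusted p = 0.105 and 0.136 for the nitrate ones, 0.0691 and 0.176 for the ammonium ones). That of PpCO2_95257 was lost without replicate 1 or 2 of the nitrate libraries at 720 ppm (adjusted p = 0.0536 and 0.0582) and with limma-voom (0.287). Both transcripts were higher with nitrate in roots and, at the CO2 level of the call, lower with nitrate in needles. At the other CO2 level the needle log2 fold changes were smaller and not called. They were -0.43 ± 0.38 SE for PpCO2_95257 at 400 ppm and -0.23 ± 0.19 SE for PpCO2_42336 at 720 ppm.

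In stem 145 members passed the filter. PpCO2_84420 was the 1 member called at 720 ppm, where 0.0951% of all tested transcripts were. It had 16.6, 16.5 and 15.5 CPM with nitrate and 7.03, 5.43 and 8.93 CPM with ammonium (log2 fold change 1.15 ± 0.18 SE, edgeR adjusted p = 0.0256; 2.1e-05 to 0.124 over the alternatives). At 400 ppm 2 were called, where 0.0879% of all tested were. PpCO2_1475 had 8.94, 9.78 and 9.71 CPM with nitrate and 3.17, 2.86 and 4.66 CPM with ammonium (log2 fold change 1.43 ± 0.20 SE, edgeR adjusted p = 0.0101). PpCO2_116521 had 31.5, 30.2 and 37.1 CPM with nitrate and 21.2, 17.3 and 18.5 CPM with ammonium (log2 fold change 0.81 ± 0.14 SE, edgeR adjusted p = 0.0402). All 3 were higher in nitrate stems as in nitrate roots. These calls too were lost in some fits without 1 library, which also had fewer replicates. Over the alternatives the log2 fold change ran from 1.02 to 1.3 for PpCO2_84420 and from 1.02 to 1.69 for PpCO2_1475. For PpCO2_116521 it ran from 0.734 to 0.892. That of PpCO2_84420 was lost without ammonium 720 ppm replicate 1 or 2 (adjusted p = 0.106 and 0.124) or without any 1 nitrate library at 720 ppm (0.0728 to 0.0917). That of PpCO2_1475 was lost without ammonium 400 ppm replicate 1 (adjusted p = 0.0607) or nitrate 400 ppm replicate 2 (0.052). That of PpCO2_116521 was lost without any 1 of the 6 libraries (adjusted p = 0.0509 to 0.193) and with the replicate block (0.0749). In stem at 400 ppm the fit without the low-complexity libraries left only ammonium replicate 3, so no p-value is given from it. PpCO2_95257, PpCO2_42336, PpCO2_1475 and PpCO2_116521 are named after their values were seen.

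The rule did not compare the CO2 levels, although it used the same libraries and set its ratio and overlap limits at each level. The shares over all transcripts are of transcripts not chosen for level or overlap, so they are not matched to the members. Each CO2 comparison set 3 libraries at 720 ppm against 3 at 400 ppm. In nitrate roots edgeR's quasi-likelihood test called 0 of the 147 members, where 0.703% of all 156123 transcripts were called, and the lowest adjusted p was 0.18. At an unadjusted p under 0.05 there were 17 members, where 6.25% of all transcripts passed, and 12 of these were higher at 720 ppm, where 3.27% of all were. The 12 became 5 without nitrate 400 ppm replicate 3, 6 without nitrate 720 ppm replicate 1, and 19 with the replicate block. In ammonium roots edgeR called 0 of 147, where 0.00641% of all were called, and the lowest adjusted p was 0.278. At an unadjusted p under 0.05 there were 49 members, where 9.04% of all passed, and 47 of the 147 members (32.0%) were higher at 720 ppm, where 4.84% of all were. The 47 came from 31 runs of identifiers, and their number fell to 29 without ammonium 720 ppm replicate 3.

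The median log2 fold change of the 147 members, 720 over 400 ppm, was 0.28 in ammonium roots, beside 0.02 over all transcripts tested, and 0.16 in nitrate roots, beside 0.01. It was above 0 for 120 members in ammonium roots and for 111 in nitrate roots. A single member's SE had a median of 0.21 in ammonium roots and 0.20 in nitrate roots. Without overlap of 3 against 3 libraries, 37 members were higher at 720 ppm in ammonium roots, beside 7.37% of all transcripts of at least 0.5 CPM in roots, and 3 were lower, beside 7.04%. In nitrate roots 27 were higher, beside 7.85%, and 6 lower, beside 7.09%. Under both nitrogen forms 7 were higher without overlap, beside 0.953% of all, and 4 differed in opposite directions without overlap, beside 0.626% of all. In the summed shares, the ammonium root libraries at 720 ppm lay above those at 400 ppm without overlap, and the nitrate root libraries overlapped.

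**Figure D5:**
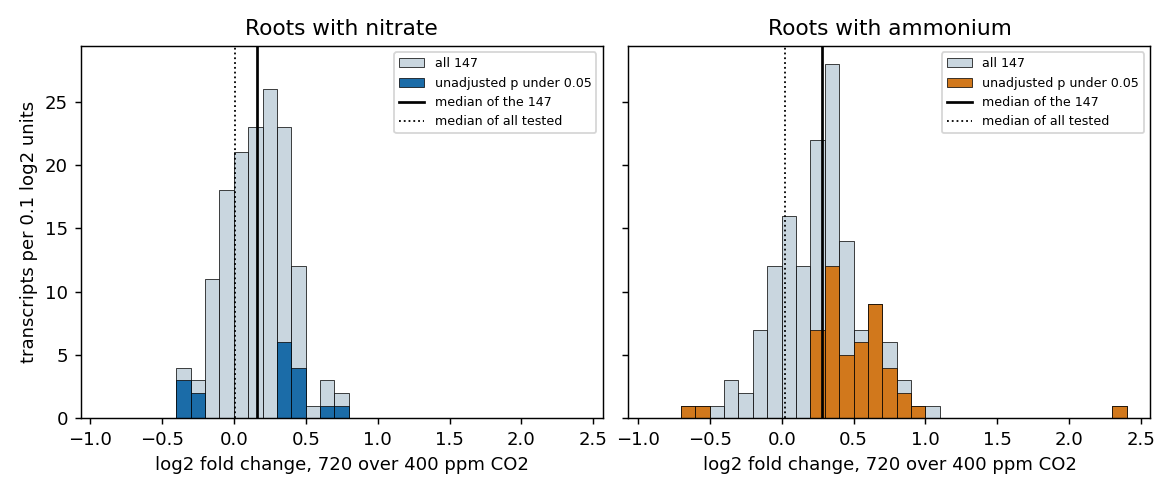
Distribution of the log2 fold change (720 over 400 ppm CO2, x axis) of the 147 transcripts in nitrate roots (left) and ammonium roots (right), with the number of transcripts per 0.1 log2 units on the y axis. Coloured bars are members at an unadjusted p under 0.05 (17 and 49); the solid line is the members' median (0.16 and 0.28) and the dotted line that of all tested transcripts (0.01 and 0.02).

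The DESeq2 test, run as an alternative, called 3 members higher at 720 ppm in ammonium roots, where 0.791% of all transcripts were called, and 1 in nitrate roots, where 1.82% were, all named after their values were seen. PpCO2_144873 had 6.35, 4.30 and 6.40 CPM in ammonium roots at 720 ppm against 2.02, 2.95 and 3.49 CPM at 400 ppm (DESeq2 log2 fold change 0.99 ± 0.24 SE, adjusted p = 0.0112; edgeR adjusted p = 0.286). PpCO2_144875 of the same run had 4.65, 3.84 and 5.65 CPM at 720 ppm against 1.98, 2.87 and 2.71 CPM at 400 ppm (DESeq2 adjusted p = 0.021, edgeR adjusted p = 0.289). PpCO2_134928 had 4.37, 5.71 and 6.14 CPM at 720 ppm against 3.65, 2.96 and 3.64 CPM at 400 ppm (DESeq2 adjusted p = 0.0388, edgeR adjusted p = 0.278). In nitrate roots PpCO2_114542 had 59.4, 66.3 and 72.8 CPM at 720 ppm against 46.5, 52.8 and 46.3 CPM at 400 ppm (DESeq2 adjusted p = 0.0388, edgeR adjusted p = 0.18). In each of these the groups did not overlap, and none passed edgeR's adjusted threshold. The limma-voom test called 0 members in either comparison.

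The ratio of nitrate to ammonium moved with CO2 most in PpCO2_166228, where the ratio at 720 ppm was 0.184 of that at 400 ppm. Its ammonium libraries were higher at 720 ppm (log2 fold change 2.37 ± 0.75 SE, edgeR adjusted p = 0.429) and did not pass the threshold. PpCO2_134928 followed with 0.498. At the other end were PpCO2_221616 with 2.08 and PpCO2_28656 with 2.05. PpCO2_28656 had 18.1, 12.8 and 19.4 CPM in nitrate roots at 720 ppm against 11.0, 13.0 and 11.3 CPM at 400 ppm, and 3.22, 2.74 and 2.97 CPM in ammonium roots at 720 ppm against 3.62, 4.00 and 5.27 CPM at 400 ppm. Its nitrate groups overlapped and its ammonium groups did not.

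In the shoot edgeR called 0 members for CO2 in each of 4 comparisons. In nitrate needles 0.00683% of all transcripts were called. There 20 of 133 members had an unadjusted p under 0.05, 7 higher and 13 lower at 720 ppm. Of all 117123 transcripts tested, 8887 (7.59%) did, and 6629 of these were higher at 720 ppm. In ammonium needles 0.00171% of all were called, and 16 members had an unadjusted p under 0.05, where 6.83% of all did. In nitrate stem 0% of all were called, and 4 of 145 members had an unadjusted p under 0.05, where 2.59% of all did. In ammonium stem 0% of all were called, and 15 members had an unadjusted p under 0.05, where 5.76% of all did. In nitrate needles and in ammonium stem, replicates 1 and 2 at 400 ppm were low-complexity libraries, and none at 720 ppm was. What this contributed to the CO2 comparisons was not tested. The DESeq2 test called 2 members in nitrate needles, where 0.794% of all were called. These were PpCO2_100674 and PpCO2_100676, of the same run and lower at 720 ppm. It called 1 in ammonium needles (PpCO2_63390, lower at 720 ppm), where 0.954% were. It called none in nitrate stem, where 0.115% of all were called, and 1 in ammonium stem, where 0.283% were. The last was PpCO2_166228, which had counts of 0, 240 and 0 in ammonium stem at 720 ppm and 0 in all 3 libraries at 400 ppm.

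The members can be set beside the other transcripts that met the same root criteria. Of the 530, 294 averaged under 0.5 CPM in both needles and stem, and 89 had a ratio of at least 1.5 in both. In ammonium roots, 66 of the 294 and 7 of the 89 were higher at 720 ppm at an unadjusted p under 0.05, with median log2 fold changes of 0.35 and 0.09, beside the members' 47 of 147 and 0.28. In nitrate roots the medians were 0.16 and -0.12, beside the members' 0.16. The sets share their libraries, and no difference between them was tested. The 89 also had larger nitrogen differences in roots, with median log2 fold changes of 4.20 at 720 ppm and 4.35 at 400 ppm, beside 1.74 and 1.80 for the members.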

How the data were processed

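Transcript abundance was measured by RNA sequencing in needles, stem and roots. The authors deposited 1 table of whole-number counts for each transcript identifier, unscaled, with 36 columns that all matched a sample by name and 0 left over. The submitters' processing notes name bcl2fastq. Which aligner, counter and assembly were used, and how reads shared by several transcripts were counted, is not given in the sources used here. The labels' treatment and extraction texts describe a root experiment with other ammonium doses, so the design was taken from titles, characteristics and the series design.

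Levels are CPM over the column total. The software was edgeR 4.0.16 in R 4.3.3, with DESeq2 1.42.0 and limma 3.58.1 as alternatives. The 12 libraries of an organ shared 1 fit with 4 group means (8 residual degrees of freedom), after filterByExpr (minimum count 10) and TMM scaling within the organ. TMM factors over all 36 libraries ran from 0.661 to 1.24. The quasi-likelihood F-test of edgeR, robust and two-sided, gave the contrasts (nitrate minus ammonium, 720 minus 400 ppm), adjusted by Benjamini-Hochberg over all transcripts tested, with calls at an adjusted p under 0.05. The standard error is the fitted change divided by the square root of its F statistic. The test code was checked on simulated data. Counting intervals are not given, and depth figures cover counting error only.

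The nitrate root mean of the rule was taken over 6 libraries and organ means over 12. The members, lists and added alternatives were chosen with earlier results of these data known. Named transcripts follow ranks: the 5 largest smaller ratios, the 5 highest nitrate root means, 2 on either side of the ratio limit (the limit of 200 members was not reached), the extremes of shoot levels, shoot ratios and the ratio between CO2 levels, and up to 3 of each of the 3 longest runs. Exceptions are marked in the text. Lists of nitrate and ammonium genes and of tissue markers were drawn up and not run, because no source used here pairs identifiers with names. Replicate numbers were taken as pairs where all 3 same-numbered pairs of libraries deviated together (r above 0.1): in roots for CO2 under nitrate (0.15 to 0.363) and for nitrogen form at 400 ppm (0.121 to 0.308), and in needles for nitrogen form at 720 ppm (0.173 to 0.387). The reported fits had no term for these pairs, and the replicate block was run only as an alternative. The labels call the libraries biological replicates, and nothing more is said of separate cultures.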

Additional observations from a re-analysis of the deposited data

Results flagged for a closer look

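In 4 members the CO2 levels differed in opposite directions under nitrate and ammonium in roots, with no overlap of the 3 libraries at 720 ppm and the 3 at 400 ppm under either form, beside 0.626% of all transcripts of at least 0.5 CPM in roots. The difference of the CO2 effects was not tested. PpCO2_134931, PpCO2_134928 and PpCO2_134929 were lower at 720 ppm with nitrate and higher at 720 ppm with ammonium, so their nitrate to ammonium ratio at 720 ppm was 0.58, 0.498 and 0.612 of that at 400 ppm. Their identifier numbers are neighbours, so they may not be independent. PpCO2_134929, named because of this pattern, had 9.72, 9.84 and 8.80 CPM in nitrate roots at 720 ppm against 12.2, 12.0 and 10.7 CPM at 400 ppm, and 2.67, 2.52 and 2.57 CPM in ammonium roots at 720 ppm against 1.69, 1.85 and 2.31 CPM at 400 ppm. PpCO2_221616 went the other way, with a ratio at 720 ppm that was 2.08 times that at 400 ppm. It had 8.11, 7.53 and 10.3 CPM in nitrate roots at 720 ppm against 6.81, 6.99 and 4.96 CPM at 400 ppm, and 0.605, 0.738 and 0.873 CPM in ammonium roots at 720 ppm against 1.25, 1.19 and 0.907 CPM at 400 ppm. On edgeR's quasi-likelihood test none of the 4 passed an adjusted p of 0.05 for CO2 under either form.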

How the results depend on the processing

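Membership was 147 as reported, 166 with TMM scaling (139 shared), 149 with DESeq2 size factors (137 shared), 142 without the low-complexity libraries and 76 where the ratio had to be under 1.5 in needles and in stem. Each share in brackets is that of all transcripts tested in the same fit. The DESeq2 test called more members, and a larger share of all transcripts, than edgeR. For CO2 it called 1 in nitrate roots (1.82%), 3 in ammonium roots (0.791%), 2 in nitrate needles (0.794%), 1 in ammonium needles (0.954%) and 1 in ammonium stem (0.283%). For nitrogen form it called 6 in needles at 720 ppm (0.46%), 6 in needles at 400 ppm (0.967%), 14 in stem at 720 ppm (0.532%) and 18 in stem at 400 ppm (0.358%). Without the low-count filter nitrogen form gave 2 calls in needles at 720 ppm (0.0995%), 2 in needles at 400 ppm (0.137%), 2 in stem at 720 ppm (0.0833%) and 9 in stem at 400 ppm (0.0858%). With limma-voom it gave 2 in needles at 720 ppm (0.105%), 0 in needles at 400 ppm (0.07%) and 6 in stem at 400 ppm (0.0734%). With the replicate block it gave 3 in needles at 720 ppm (0.0939%), where replicate numbers were taken as pairs. It gave 4 in stem at 400 ppm (0.0864%), where they were not. At an unadjusted p under 0.05, 19 members were higher at 720 ppm in nitrate roots with the block (3.87%) and 25 with limma-voom (3.33%), against 12 as reported (3.27%). Without the low-complexity libraries nitrogen form gave 2 calls in needles at 720 ppm (0.124%) and 3 in stem at 720 ppm (0.0984%). In needles at 400 ppm that fit left only nitrate replicate 3, so its count is not given. Leaving out 1 library at a time gave 0 to 1 calls for CO2 in nitrate needles (0 to 0.0701%) and 0 to 2 in ammonium stem (0 to 0.202%). For nitrogen form it gave 0 to 1 in needles at 720 ppm (0.0346 to 0.063%), 0 to 1 in stem at 720 ppm (0.0334 to 0.0413%), 0 to 2 in needles at 400 ppm (0.0336 to 0.125%) and 0 to 10 in stem at 400 ppm (0.0433 to 0.379%). The 10 calls and the 0.379% both came without ammonium 400 ppm replicate 3, which left the low-complexity replicates 1 and 2 as the ammonium libraries. The counts higher at 720 ppm at an unadjusted p under 0.05 then ran from 5 to 18 in nitrate roots (2.53 to 3.35%) and from 29 to 54 in ammonium roots (3.32 to 5.84%). The causes were not tested. No result reversed its direction.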
